A study of Mus musculus with 6 samples.

Results

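The 10 genes Tcf7l2, Lef1, Shox2, Zic1, Pou4f1, Prkcd, Gpr151, Ramp3, Slitrk6 and Tnnt1 mark the thalamus and the habenula, which lie beneath the hippocampus. They were found by gene symbol in a table of 51912 genes, and all 10 were present there once. RNA was measured by sequencing in hippocampus of 2 inbred mouse strains, C57BL/6 and DBA/2, with 3 libraries of each strain. No treatment, transgene or induced allele is named for either strain, and sex, age and substrain are not stated in the labels. The RNA came from frozen tissue picked at random within a strain. Whether a library stands for 1 animal is not stated, and the p-values therefore cover only library-to-library spread, which can be technical. Strain is the only variable that the labels name. Below, a mean with ± is given with its SD over the 3 libraries of a strain, and a log2 fold change with ± is given with its SE. In hippocampal tissue these 10 genes were read as a possible gauge of RNA from neighbouring tissue. Whether they measure its amount in a library was not tested.

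The thalamus relays sensory and motor signals to the cortex, and the habenula, at its dorsal edge, passes signals from the forebrain to the midbrain. Neurons of both regions keep Tcf7l2 into adulthood. This transcription factor and its relative Lef1 bind DNA through an HMG box and, with beta-catenin, switch on targets of Wnt signalling. Pou4f1, also called Brn3a, is a POU homeodomain factor of the medial habenula, where the orphan receptor Gpr151 is also made. Shox2 is a homeodomain factor, Zic1 a zinc finger factor of thalamus, medial habenula and other midline tissue, and Prkcd the delta isoform of protein kinase C, abundant in thalamic relay nuclei. None of the 10 is exclusive to these regions. Tcf7l2 is also made by maturing oligodendrocytes, Lef1 by endothelium and Zic1 by meningeal cells.

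The promoter sequences of 3 of these genes are printed because they were the only ones with the core letters of a TCF/LEF site, the site that Tcf7l2 and Lef1 themselves bind. RefSeq (build GRCm38.p6, the C57BL/6J reference) held 14 promoter windows for 9 of the 10 genes. Each window is 300 bases long, from 250 before to 50 after an annotated start. CTTTGA was searched on both strands, so that TCAAAG is the same match on the other strand. It occurred in 3 of the 14 windows (21.4%), against 16.0% of all 32851 windows. The homeodomain core TAATTA, which reads the same on both strands, occurred in 0 of the 14 and in 5.29% of all windows. Capitals mark the TCF/LEF match, which starts at -139 in Shox2 (chr3:66981722-66982021, minus strand) and also at -139 in Prkcd (chr14:30626159-30626458, minus strand). In Lef1 (chr3:131156044-131156343, plus strand) the window of its most downstream start has matches at -180 and -120.
Shox2: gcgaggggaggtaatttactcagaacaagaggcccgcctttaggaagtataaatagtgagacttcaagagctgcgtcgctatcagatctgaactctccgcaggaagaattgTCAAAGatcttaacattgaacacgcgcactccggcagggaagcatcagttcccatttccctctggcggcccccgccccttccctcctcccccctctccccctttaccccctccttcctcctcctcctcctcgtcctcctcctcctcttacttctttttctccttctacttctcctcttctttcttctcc
Prkcd: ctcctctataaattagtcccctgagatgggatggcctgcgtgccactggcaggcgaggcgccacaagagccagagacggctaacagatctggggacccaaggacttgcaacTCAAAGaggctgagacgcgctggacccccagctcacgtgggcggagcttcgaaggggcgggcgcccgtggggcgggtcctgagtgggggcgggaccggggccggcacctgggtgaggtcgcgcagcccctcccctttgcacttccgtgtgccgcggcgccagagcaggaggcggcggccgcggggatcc
Lef1: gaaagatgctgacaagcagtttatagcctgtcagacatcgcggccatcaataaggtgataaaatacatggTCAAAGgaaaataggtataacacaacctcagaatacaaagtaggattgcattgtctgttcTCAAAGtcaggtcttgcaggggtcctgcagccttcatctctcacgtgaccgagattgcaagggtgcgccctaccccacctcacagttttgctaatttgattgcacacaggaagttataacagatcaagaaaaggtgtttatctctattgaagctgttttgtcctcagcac
The windows ranged from 38.3% GC (Slitrk6) to 78.3% GC (Pou4f1), against a median of 52.7% over all windows. A match is a match of letters only. The DBA/2 sequence of these windows was not used here.

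Total counts per library were 13867280 to 20185683 in C57BL/6 and 13839366 to 16912153 in DBA/2. Levels are CPM, counts scaled by library size and TMM factor. A count of 0 allows a level of up to 0.15 to 0.219 CPM at these depths (3 counts, counting error only). Hippocampal neuron markers, a list of 20 genes, were present in every library at a summed level of 2043 to 2205 CPM. Neurod6, a transcription factor of pyramidal neurons, had 191 to 211 CPM across C57BL/6 and 229 to 257 CPM across DBA/2. Of the 20, 4 rose and 4 fell, and the larger changes were falls, in C1ql2 (-1.24 ± 0.08), Pcp4 (-1.14 ± 0.16) and Tdo2 (-0.82 ± 0.15). Xist, the transcript of the inactive X chromosome, had 3214, 1 and 6995 counts in the C57BL/6 libraries and 2 to 12 in those of DBA/2. The Y-linked gene Ddx3y had 996 to 1048 counts in the C57BL/6 libraries and 837 to 1323 in those of DBA/2, so the libraries with Xist counts held Y-linked RNA too. Libraries with high Xist counts were found in C57BL/6 only, so sex make-up may differ with strain. Its part in the differences between the strains was not tested and cannot be told apart from strain here.

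All 10 marker genes had a lower mean in DBA/2, and 9 of the 10 did not overlap between the strains, against 20.1% of all 17517 genes tested that were lower in DBA/2 without overlap. Zic1, Prkcd, Lef1 and Slitrk6 fell, that is, passed edgeR's quasi-likelihood test at a Benjamini-Hochberg adjusted p under 0.05 over all genes tested. Of all genes, 13.7% were called lower. No marker was called higher, against 9.09% of all genes, and none was higher at an unadjusted p under 0.05 in this test. All log2 fold changes were also negative in DESeq2 and limma-voom, which for the 9 genes without overlap was nearly fixed by the same counts. The median log2 fold change (DBA/2 over C57BL/6) of the 10 was -1.64, and that of all genes 0.00274. The fit lets genes with a wide spread keep it, and these genes had one: their median coefficient of variation was 33.8% in C57BL/6 and 52.7% in DBA/2, against 6.98% and 7.90% over all genes. Without this robust option 10 of the 10 were called lower (13.6% of all genes), as with limma-voom (also 13.6%), and the DESeq2 Wald test called 8 (11.2%). Without DBA/2 replicate 1, the highest DBA/2 library for 9 of the 10, 8 were called (12.5% of all genes). Leaving out that library widens the difference of those 9 genes by the choice of library. Without DBA/2 replicate 3 only Slitrk6 and Zic1 were called, 2 in all (12.0%). With no filter on low counts 5 were called (8.63%). With the 2 Xist-positive C57BL/6 libraries left out, 3 were called (7.25%), namely Prkcd, Zic1 and Tnnt1, and Lef1 and Slitrk6 were not. In whole tissue, fewer cells of a type and less RNA per cell cannot be told apart.

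**Figure D1:**
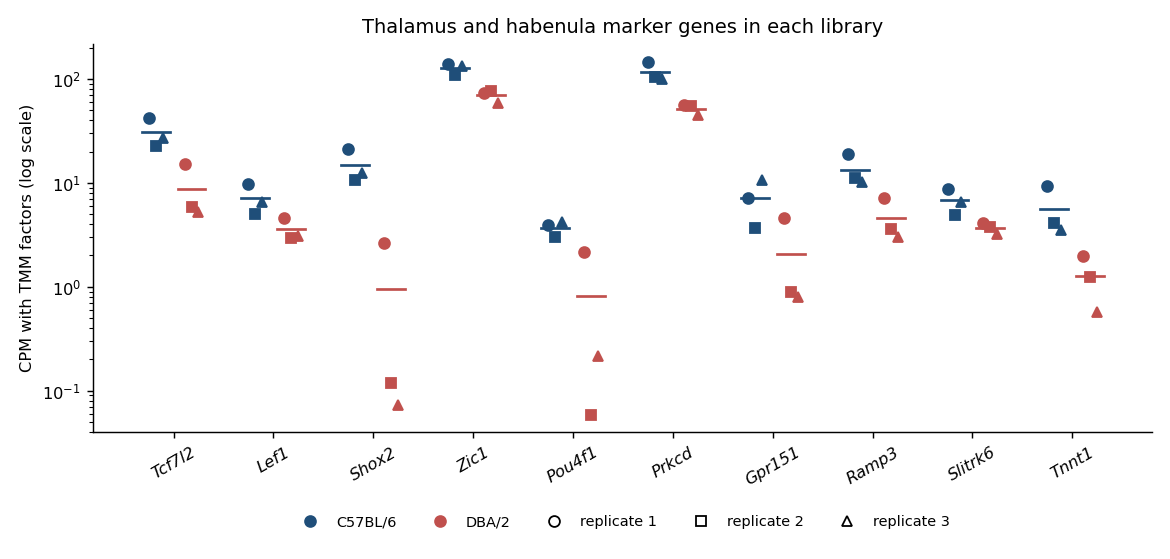
CPM of the 10 marker genes (log axis) in the 3 libraries of C57BL/6 (blue) and DBA/2 (red), with the replicate number as the symbol and the mean as a bar. Gpr151 is the 1 gene whose strains overlap, and DBA/2 replicate 1 is the highest DBA/2 library for 9 of the 10 genes.

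Tcf7l2 (chromosome 19, 55741820 to 55933654) had 42.6, 22.7 and 27.0 CPM in the C57BL/6 libraries and 15.3, 5.83 and 5.26 CPM in the DBA/2 libraries, in replicate order. Every C57BL/6 library was higher than every DBA/2 library, and replicate 1 was the highest of both strains. Its log2 fold change was -1.78 ± 0.53 (SE), a 3.49-fold higher C57BL/6 mean, with an edgeR adjusted p of 0.0941. Without DBA/2 replicate 1, its highest DBA/2 library, the log2 fold change was -2.47 and called (edgeR adjusted p = 0.0376). The wider difference follows from the choice of library. Lef1 (chromosome 3, 131110471 to 131224356) had 9.75, 5.03 and 6.58 CPM in C57BL/6 and 4.64, 2.94 and 3.10 CPM in DBA/2. It fell by 1.0 ± 0.25 on the log2 scale (SE, edgeR adjusted p = 0.00943), but the gap was narrow, with the lowest C57BL/6 library 1.08-fold above the highest of DBA/2. Without DBA/2 replicate 3 its edgeR adjusted p was 0.0526. An antisense gene of 30 counts in all shares 1208 exonic bases with Lef1, and whether counting used strand is not given in the sources used here.

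Shox2 (chromosome 3, 66971727 to 66981771) showed the widest difference of the 10. It had 353, 146 and 248 counts in C57BL/6 and 45, 2 and 1 counts in DBA/2, or 21.2, 10.6 and 12.4 CPM against 2.64, 0.118 and 0.0720 CPM. DBA/2 replicate 1 thus held 27.8 times the mean of the other 2 DBA/2 libraries, which lie under the level that 3 counts stand for. The summed counts of the strains, 747 and 48, gave a ratio of 14.8 after scaling, with a 95% exact interval of 11 to 20.2 that covers counting error only. The log2 fold change of -3.88 ± 0.90 (SE) had an edgeR adjusted p of 0.05001, just over the threshold, and of 0.0268 in DESeq2. Without DBA/2 replicate 1 the log2 fold change was -7.14 and was called (edgeR adjusted p = 0.00376), with only 2 and 1 counts left in DBA/2. That wider difference follows from leaving out the highest DBA/2 library. Shox2 passed the filter on low counts through its C57BL/6 libraries, since 1 of 3 DBA/2 libraries reached 0.596 CPM. It overlaps Rsrc1 on the other strand by 153 exonic bases.

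Zic1 (chromosome 9, 91358058 to 91365810) was the most abundant of the 10 in CPM and fell under each of the 17 alternative settings too. Its levels were 139, 110 and 135 CPM in C57BL/6 and 72.9, 76.4 and 59.3 in DBA/2. The highest DBA/2 library was replicate 2, the 1 exception to the order of the other marker genes. The log2 fold change was -0.88 ± 0.13 (SE, edgeR adjusted p = 0.00402). Zic1 lies head to head with Zic4, sharing 60 exonic bases on opposite strands. Reads from these bases can be told apart only if counting used strand, which is not given in the sources used here.

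Pou4f1 (chromosome 14, 104461676 to 104467999) had 3.91, 2.99 and 4.19 CPM in C57BL/6 and 2.17, 0.0589 and 0.216 CPM in DBA/2. In counts these were 65, 41 and 84 against 37, 1 and 3. DBA/2 replicate 1 came within 1.38-fold of the lowest C57BL/6 library, while the other 2 DBA/2 libraries were near 0. The log2 fold change of -2.13 ± 0.90 (SE) was not called (edgeR adjusted p = 0.194). Gpr151 (chromosome 18, 42577881 to 42579652), the other habenular gene, had 7.22, 3.72 and 10.6 CPM in C57BL/6 and 4.58, 0.883 and 0.793 CPM in DBA/2. Here DBA/2 replicate 1 exceeded C57BL/6 replicate 2, so the strains overlapped. Its log2 fold change was -1.77 ± 0.81 (SE, edgeR adjusted p = 0.231). Without DBA/2 replicate 1 both were called lower, Pou4f1 with a log2 fold change of -4.76 and Gpr151 with one of -3.11. That setting takes out the DBA/2 library nearest to C57BL/6, so a wider difference follows from the choice of library. Pou4f1 was then tested through C57BL/6 alone, with 1 and 3 counts left in DBA/2.

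Prkcd (chromosome 14, 30595354 to 30626210) had 147, 105 and 101 CPM in C57BL/6 and 56.5, 54.4 and 44.6 in DBA/2. The lowest C57BL/6 library was 1.78-fold above the highest of DBA/2. Its log2 fold change was -1.17 ± 0.20 (SE, edgeR adjusted p = 0.0194), a 2.26-fold higher C57BL/6 mean. Without replicate 1, 2 or 3 of DBA/2 the log2 fold change was -1.24, -1.21 or -1.08, and the edgeR adjusted p was 0.0608, 0.0753 or 0.0591, so the size was similar and the call was lost.

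Ramp3 (chromosome 11, 6658521 to 6677475), an accessory protein of calcitonin family receptors, had 18.8, 11.1 and 10.2 CPM in C57BL/6 and 7.22, 3.59 and 3.03 in DBA/2. The log2 fold change was -1.51 ± 0.45 (SE, edgeR adjusted p = 0.0896), and -2.0 with a call without DBA/2 replicate 1 (edgeR adjusted p = 0.0127). Replicate 1 was its highest DBA/2 library, so the wider difference follows from the choice of library. A pseudogene of 4 counts in all shares 101 exonic bases with it on the other strand. Slitrk6 (chromosome 14, 110748580 to 110755149), a transmembrane protein of synaptic adhesion, had 8.79, 4.96 and 6.58 CPM in C57BL/6 and 4.11, 3.77 and 3.24 CPM in DBA/2. It fell by 0.87 ± 0.19 on the log2 scale (SE, edgeR adjusted p = 0.00159). Tnnt1 (chromosome 7, 4504570 to 4516382), a troponin T best known from slow muscle, had 9.33, 4.08 and 3.54 CPM in C57BL/6 and 2.00, 1.24 and 0.576 CPM in DBA/2. Replicate 1 of each strain was high, and C57BL/6 replicate 1 held 2.45 times the mean of the other 2 libraries of its strain. The log2 fold change was -2.11 ± 0.61 (SE, edgeR adjusted p = 0.0687), and -1.53 with a call without C57BL/6 replicate 1 (edgeR adjusted p = 0.00175). No marker gene had a near-identical copy among annotated transcripts, by 95% identity over at least 200 bases and 0.5 of the shorter transcript.

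**Figure D2:**
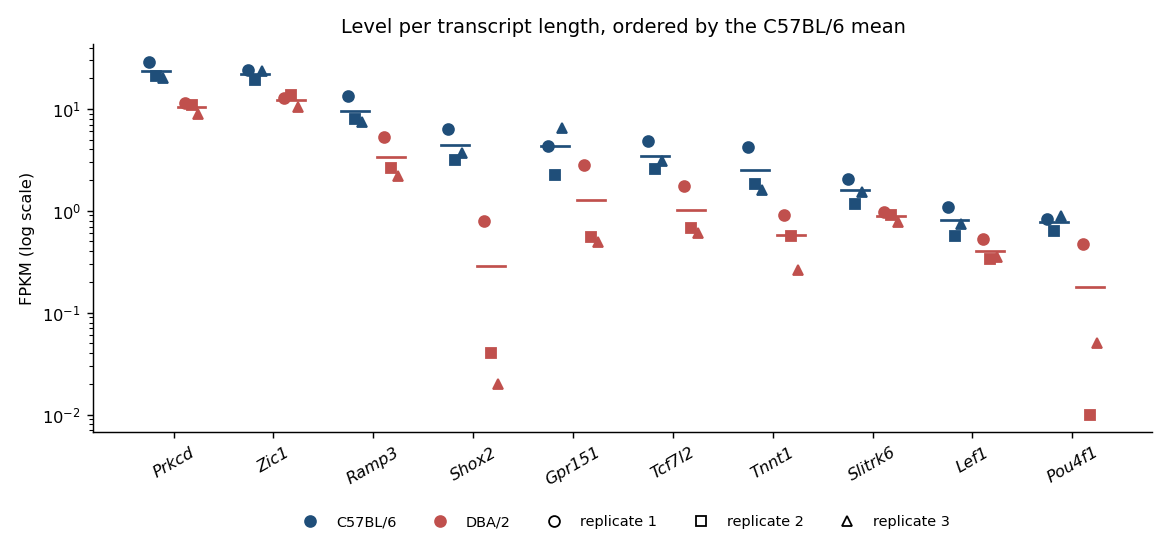
FPKM of the 10 marker genes (log axis) per library, ordered by the C57BL/6 mean, with replicate numbers as symbols and means as bars. Prkcd and Zic1 lead in both strains, and Shox2 goes from 4th place in C57BL/6 (4.41) to 9th in DBA/2 (0.287).

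Per transcript length, on the authors' FPKM scale, Prkcd (23.3 ± 5.02 FPKM) and Zic1 (22.2 ± 2.75) were the highest in C57BL/6 and overlapped. Ramp3 followed at 9.59 ± 3.38 FPKM, apart from the genes above and below it. Shox2 (4.41 ± 1.69), Gpr151 (4.35 ± 2.09), Tcf7l2 (3.48 ± 1.18) and Tnnt1 (2.54 ± 1.43) each overlapped the next in order, down to Slitrk6 (1.58 ± 0.447), which stood apart from the genes below it. Lef1 (0.803 ± 0.271) and Pou4f1 (0.783 ± 0.136) were the lowest and overlapped each other, all as SD with n = 3. In DBA/2 the order opened with Zic1 (12.3 ± 1.63 FPKM) and Prkcd (10.5 ± 1.31), which overlapped and stood apart from the rest. Below them Ramp3 had 3.37 ± 1.66 FPKM, and every gene from Ramp3 to Pou4f1 (0.177 ± 0.255) overlapped the next one. Shox2 was 9th there, at 0.287 ± 0.445 FPKM.

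The libraries of a strain differed in an ordered way. Of the 10 marker genes, 8 were highest in C57BL/6 replicate 1 and 2, the habenular Pou4f1 and Gpr151, in C57BL/6 replicate 3. Lists of 20 further thalamus genes and 20 further habenula genes showed the same division: 17 of the thalamus genes were highest in C57BL/6 replicate 1 and 18 of the habenula genes in replicate 3. Over all genes tested these shares were 33.4% and 31.7%. In DBA/2, replicate 1 was highest for 9 of the 10 markers, 13 of the 20 thalamus genes and 12 of the 20 habenula genes, against 32.6% of all genes. This was not particular to them, since 13 of the 20 hippocampal neuron genes were highest there too. Of the endothelial genes 2 of 14 were, and of the striatum genes 0 of 9. Chrna3, a nicotinic receptor subunit abundant in the medial habenula, had 5.60, 4.74 and 9.23 CPM in C57BL/6 and 4.76, 1.0 and 0.937 in DBA/2, the pattern of Gpr151. Gbx2, a homeobox gene of the thalamus, had 4.63, 1.97 and 2.49 CPM and 0.646, 0.294 and 0.0720 CPM, highest in replicate 1 of both strains as Tcf7l2 was. All 16 choroid plexus markers were highest in replicate 1 of each strain. Of 20 myelin markers, 19 were highest in C57BL/6 replicate 1 and 19, with another gene as the exception, in DBA/2 replicate 1. In contrast, 14 of 14 endothelial markers were highest in C57BL/6 replicate 3. The part of these tissues in the differences between libraries was not tested.

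**Figure D3:**
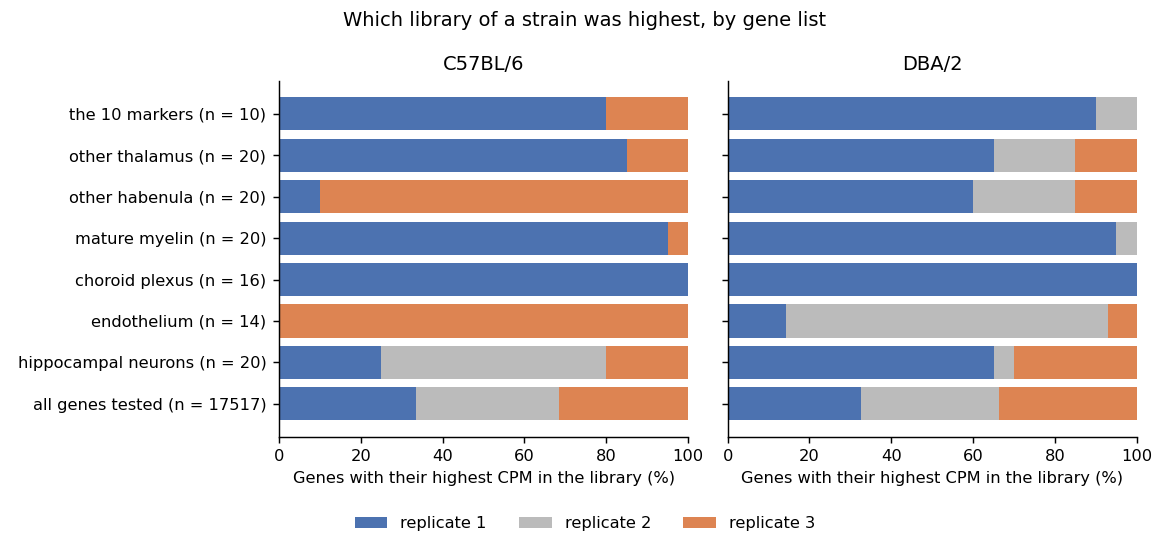
Share of each list's tested genes (percent) whose highest CPM within a strain was in replicate 1, 2 or 3, for C57BL/6 (left) and DBA/2 (right). Thalamus genes peak in C57BL/6 replicate 1 (17 of 20) and habenula genes in C57BL/6 replicate 3 (18 of 20), while all genes tested divide about evenly.

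Further thalamus genes were mostly lower in DBA/2. Of 20, 13 fell and 1 rose, with a median log2 fold change of -0.76, and 16 were lower in DBA/2 without overlap. The falls were led by Gbx2 (-3.08 ± 0.48), the actin-binding Synpo2 (-1.96 ± 0.27), the VIP receptor Vipr2 (-1.91 ± 0.29), Rgs16, a regulator of G protein signalling (-1.83 ± 0.13), and Nexn (-1.60 ± 0.23), all as log2 fold change with SE. Gbx2 passed the filter through C57BL/6, since 1 of 3 DBA/2 libraries reached 0.596 CPM. So did Vipr2, which had 0.576 CPM in DBA/2 replicate 3. Synpo2 had 29.3, 17.7 and 19.5 CPM in C57BL/6 and 7.28, 4.83 and 4.90 CPM in DBA/2. Slc17a6, the vesicular glutamate transporter of thalamic and habenular neurons, went from 71.1 ± 16.7 CPM in C57BL/6 to 37.8 ± 8.71 in DBA/2 without a call (edgeR adjusted p = 0.0868), though its strains did not overlap. Adarb1, an RNA-editing enzyme that the hippocampus also makes, was the most abundant of the list and fell from 276 ± 35.3 to 228 ± 7.93 CPM. The 1 gene called higher was Lhx2, also active in hippocampal development, at 67.2 ± 1.2 and 80.6 ± 8.43 CPM. Several of these genes are expressed in the hippocampus itself, and 5 of the 20 had more than 50 CPM in DBA/2.

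Of 20 further habenula genes 6 fell and none rose, with a median log2 fold change of -0.46, and none was higher at an unadjusted p under 0.05. The 6 were Chrnb3 (-1.94 ± 0.52), a nicotinic receptor subunit, Irx1 (-1.49 ± 0.37), Gng8 (-0.96 ± 0.28), Tac2 (-0.96 ± 0.18), Nhlh2 (-0.67 ± 0.18) and Nwd2 (-0.39 ± 0.09), as log2 fold change with SE. Chrnb3 and Irx1 passed the filter of 0.596 CPM through C57BL/6. In DBA/2, Chrnb3 had 0.0589 CPM in replicate 2, and Irx1 had 0.53 and 0.432 CPM in replicates 2 and 3. Tac2, the neurokinin B precursor of the medial habenula, had 7.04, 6.56 and 10.1 CPM in C57BL/6 and 4.87, 3.77 and 3.67 CPM in DBA/2. Chrna3 (-1.53 ± 0.72) and Chrnb4 (-1.59 ± 0.78), which form a receptor together, were not called and overlapped between the strains. The cholinergic genes Chat, Slc5a7 and Slc18a3, which septal fibres and local neurons could also supply, had log2 fold changes of -0.60, -0.52 and -0.55 and were not called. Of the 20 habenula genes, 16 had a negative log2 fold change and 14 had under 10 CPM in C57BL/6. The 3 with more than 50 CPM in DBA/2 were Pcdh10 (0.05), Etv1 (0.09) and Htr2c (-0.10), and none of them was called. Of 10 genes of the reticular thalamus, which surrounds the relay nuclei, only Meis2 fell (-0.50 ± 0.07, SE), and Six3 (-0.42 ± 0.19) and Ecel1 (-0.32 ± 0.48) were not called. Six3, Ecel1 and Pvalb were named after their values were seen. Pvalb and Sst, made by interneurons of the hippocampus as well, had log2 fold changes of 0.02 and -0.14 and were not called.

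**Figure D4:**
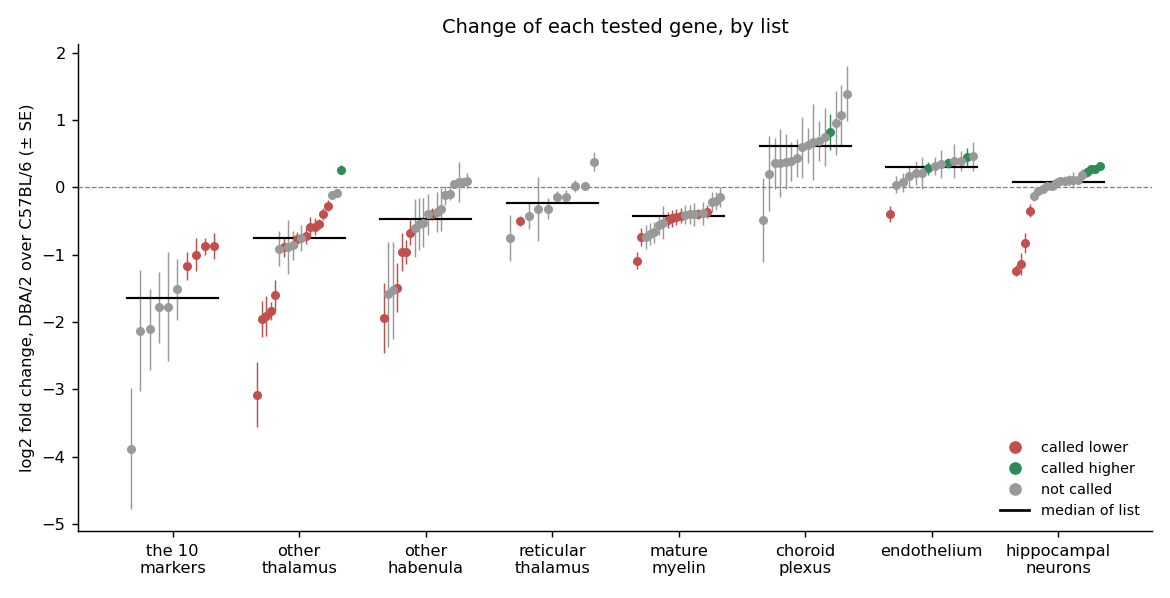
Log2 fold change (DBA/2 over C57BL/6) with SE for each tested gene of 8 lists, coloured by call, with the median of the list as a bar. The medians run from -1.64 for the 10 markers and -0.76 for further thalamus genes to 0.61 for choroid plexus genes.

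Other genes of the Wnt pathway were called in both directions. Of 23 tested, 3 rose and 3 fell, and the median log2 fold change was 0.08. The receptor gene Fzd10 fell from 2.25 ± 1.02 to 0.658 ± 0.197 CPM, the pathway inhibitor Nkd1 from 14.6 ± 2.17 to 8.15 ± 1.14 CPM and the receptor gene Fzd1 from 17.5 ± 1.24 to 13.8 ± 1.06 CPM. Fzd10, with 0.504 CPM in DBA/2 replicate 3, passed the filter of 0.596 CPM through C57BL/6. Ctnnb1, which encodes beta-catenin, was at 454 ± 11.7 CPM beside 422 ± 8.46 CPM in DBA/2, with no call (edgeR adjusted p = 0.0971). Apc, a scaffold of beta-catenin breakdown, rose from 393 ± 18.5 to 445 ± 35.1 CPM. The other 2 TCF genes, Tcf7 and Tcf7l1, named after their values were seen, had log2 fold changes of 0.07 and 0.51 and were not called.

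Among relatives of the marker genes, 3 of 23 tested rose and 7 fell, the latter 3 without C57BL/6 replicate 1 or 3 and 4 without DBA/2 replicate 2 or 3. Zic4, also on the thalamus list, fell with a log2 fold change of -0.59 ± 0.15, beside -0.88 for Zic1. Zic2 (-0.37 ± 0.08) and Zic5 (-0.29 ± 0.10), named after their values were seen, fell too. Tnnt2, the cardiac troponin T, had 98 counts in C57BL/6 and 6 in DBA/2, where none of the 3 libraries reached the filter, so it was tested through C57BL/6 alone. Prkch, another protein kinase C isoform, fell from 5.82 ± 1.30 to 3.85 ± 1.03 CPM. The most abundant relatives, Prkce and Prkca, had log2 fold changes of -0.09 and 0.12 and were not called.

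Markers of other tissues near or in the hippocampus differed in their direction, and their part in the values of the 10 genes was not tested. Of 20 mature myelin genes 8 fell and none rose, with none higher at an unadjusted p under 0.05 and a median log2 fold change of -0.43. The count of 8 was 17 without the robust option and with limma-voom and 18 with the replicate block, and leaving out 1 library gave 4 (without DBA/2 replicate 2) to 15 (without DBA/2 replicate 3). Their summed level was 7509 to 9345 CPM in C57BL/6 and 5050 to 6822 CPM in DBA/2. Mog, a protein of the outer myelin sheath, fell from 71.3 ± 6.92 to 42.7 ± 7.64 CPM. Of 12 genes of oligodendrocyte precursors and newly formed oligodendrocytes 6 fell, led by the lineage factor Sox10 from 61.9 ± 6.66 to 36.9 ± 1.09 CPM. Markers of the newly formed stage were mixed. Itpr2 fell from 29.8 ± 1.97 to 20.5 ± 1.66 CPM, without overlap. Gpr17 (log2 fold change 0.14), Lims2 (0.29), Bcas1 (-0.15) and Enpp6 (-0.25, lower without overlap) were not called. Of these uncalled genes, all but Bcas1 were named after their values were seen. Of 16 choroid plexus genes 1, Steap1, rose, with a median of 0.61 and overlapping sums of 1175 to 2404 CPM (C57BL/6) and 1777 to 3836 CPM (DBA/2). That count was 6 without the robust option, 9 with the replicate block, 0 without C57BL/6 replicate 2 or 3 or DBA/2 replicate 1 or 2, 3 without C57BL/6 replicate 1 and 4 without DBA/2 replicate 3. Endothelial genes, with 3 of 14 higher and 1 lower, had a median of 0.30 and sums of 195.9 to 279.8 and 256.2 to 313.4 CPM. Without C57BL/6 replicate 3, in which all 14 peak, 9 were called higher, against 2 without C57BL/6 replicate 1 and 1 without any other single library. None of 12 meningeal and fibroblast genes was called by edgeR, with 2 higher and 2 lower at an unadjusted p under 0.05. Their median was -0.13, with 7 of the 12 negative, and their sums were 408.2 to 581.3 and 264.3 to 403.7 CPM. Ptgds made up most of these sums in C57BL/6, with 341 ± 66.7 CPM there and 146 ± 49.9 in DBA/2. Igf2, the next most abundant, went the other way, with 61.4 ± 19.1 and 97 ± 23.4 CPM. The sums therefore do not speak for the list as a whole.

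Of 10 neocortex genes 3 rose and 1 fell, and of 9 striatum genes 3 rose and none fell, nor was any lower at an unadjusted p under 0.05. The striatal count was 1 without C57BL/6 replicate 1 or 3 or DBA/2 replicate 2, and 0 without C57BL/6 replicate 2. The 12 hypothalamus genes summed to 7.77 to 10.1 CPM in C57BL/6 and 4.29 to 6.05 CPM in DBA/2, and only Gal fell among the 4 tested. Gal had 0.528, 0.471 and 0.216 CPM in DBA/2, all under the filter of 0.596 CPM, so it was tested through C57BL/6 alone. Gal, Hcrt and Trh were named after their values were seen. Hcrt, the orexin precursor, was at 0 in C57BL/6 replicate 1 and in DBA/2 replicates 1 and 2. Trh, which did not pass the filter, had 82 counts in C57BL/6 and 12 in DBA/2. None of the 4 tested genes of the midbrain and pretectum was called by edgeR, and none had an unadjusted p under 0.05. With no filter on low counts, 4 of 10 midbrain and 3 of 12 hypothalamus genes were called lower. Leaving out 1 library gave up to 1 of 6 and up to 3 of 7 called lower.

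Among other genes, those whose profile over the 6 libraries lay nearest to the mean profile of the 10 markers were sought among 11519 named genes of at least 5 CPM. Likeness was the root mean square difference between centred log2 CPM values. Synpo2 was the nearest at 0.338, and Rgs16 was 5th at 0.428, both already on the thalamus list. Syt9, a synaptotagmin, was next at 0.370, with 23.6 ± 6.22 CPM in C57BL/6 and 7.98 ± 3.34 in DBA/2. The long noncoding RNA Neat1 (0.419), the replication gene Mcm6 (0.426), Rab37 (0.464), the axonemal dynein gene Dnah7b (0.464), Sspo (0.471), Zfand1 (0.480) and the mitochondrial ribosomal gene Mrpl35 (0.484) completed the 10. A small value can come from the strain difference without the markers' spread between libraries. In C57BL/6, Mcm6 had 14.8 ± 0.669 and Mrpl35 23.9 ± 0.67 CPM, a narrow spread beside that of the markers. Among the markers, Tcf7l2 lay nearest to the mean of the other 9, at 0.0930, and Shox2 farthest, at 2.12.

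**Figure D5:**
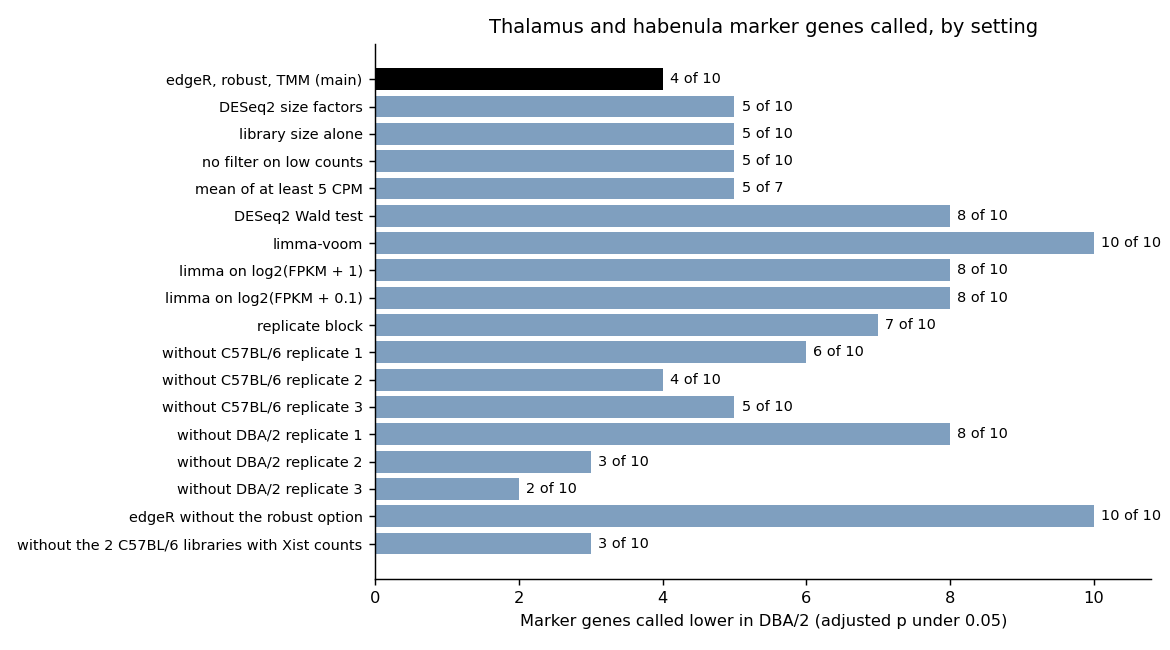
Number of the 10 marker genes called lower in DBA/2 at an adjusted p under 0.05 (bars) in the edgeR fit and under 17 other settings. The count runs from 2 without DBA/2 replicate 3 to 10 with limma-voom and without the robust option.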

How the data were processed

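RNA was sequenced from hippocampus of 2 mouse strains, with 3 libraries each, grouped by the strain label and numbered by the sample title. The submitters' processing notes name build GRCm38 with the tools Trimmomatic (0.30), HISAT2 (2.0.1) and Cufflinks (2.2.1). How reads were assigned to genes, with which annotation and strand setting, is not given in the sources used here. Raw integer counts for each gene were deposited, beside FPKM values by the authors that equal count over gene length and library total within 0.005. Gene lengths, also deposited, are exonic bases. A further 12 columns fit none of the labelled samples and were left out.

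Counts were tested with edgeR 4.0.16 in R 4.3.3 (quasi-likelihood F test, robust fit, TMM factors, filterByExpr by strain), with Benjamini-Hochberg adjustment over the 17517 genes that passed and a threshold of 0.05. The SE is the log2 fold change divided by the square root of F. All 10 marker genes passed the filter, Shox2 and Pou4f1 with 1 and Tnnt1 with 2 of 3 DBA/2 libraries over 0.596 CPM, so these 3 passed through C57BL/6. On counts simulated for this comparison (17269 genes tested), 72.7% of 1.5-fold and 86.9% of 2-fold changes were recovered, and 4.82% of 166 calls were false. The simulation gave each gene the spread typical of its level. The marker genes spread far more, with a median coefficient of variation of 33.8% in C57BL/6 and 52.7% in DBA/2 (all genes 6.98% and 7.9%). These rates therefore do not apply to them. Libraries of a strain differed by more than sampling noise (chi-square per degree of freedom 3.16 to 3.93).

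The marker genes and the 15 other lists were chosen with earlier results of these data known, so the lists were given no set test. Named beside the markers are up to 3 called genes of each list with the largest change and at least 1 CPM, its 2 most abundant genes, any gene of the further thalamus and habenula lists, and the 10 genes nearest in profile (0.5 added to counts before the logarithm), leaving out predicted genes, clones and pseudogenes. Not all are printed, and some genes are not reported here. Coordinates and overlaps are from GENCODE M21 (GRCm38, counted from 1), which held 99.5% of the gene IDs, and copies were sought with BLAST 2.17.0. The settings varied were the scaling (size factors of DESeq2, or total counts), the filter (none, or a mean of at least 5 CPM), the tool (DESeq2 1.42.0, limma-voom (limma 3.58.1), limma on log2(FPKM + 1) and log2(FPKM + 0.1)), the replicate number as a block and leaving out each library. A further 2 settings, edgeR without its robust option and without the C57BL/6 libraries with Xist counts, were chosen after seeing the data.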

Additional observations from a re-analysis of the deposited data

How the results depend on the processing

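The direction of all 10 marker genes was the same under each alternative that tested them. For the 9 genes whose strains did not overlap, leaving out a library could not reverse it, so this is no separate support. The number called lower, 4 in edgeR, was 8 with the DESeq2 Wald test, 10 with limma-voom, 8 with limma on log2(FPKM + 1) (11.1% of all genes), 8 with limma on log2(FPKM + 0.1) (11%) and 10 in edgeR without the robust option. Leaving out 1 library gave 2 to 8 called markers, 11 to 15 further thalamus genes, 4 to 8 further habenula genes and 3131 to 3717 genes in all. With the replicate number as a replicate block 7 markers were called (13.4% of all genes). Pairing by number was not shown for every library. Same-numbered libraries had correlations of their deviations over genes of 0.127, -0.0650 and 0.00700, and not every library correlated best with its own number. The replicate 1 pair, however, had the highest correlation of all pairs. Choroid plexus and myelin genes also peaked mostly in replicate 1 of both strains. With a mean of at least 5 CPM, 2 of 10 tested further habenula genes were called. Without the 2 C57BL/6 libraries with Xist counts, which leaves 1 C57BL/6 library assumed to vary like the DBA/2 libraries, 2012 genes in all, 3 markers and 0 further habenula genes were called (3 at an unadjusted p under 0.05). The cause of these shifts was not tested. Depth limits Shox2 and Pou4f1, with 1 to 3 counts in DBA/2 replicates 2 and 3.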
